A study of Mus musculus with 23 samples.

Results

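The genes described here encode proteins of the mitochondrial ribosome, with the exception of Mrps36, described below. They were chosen by symbol: Mrpl or Mrps followed by a number, without the 3 symbols that carry a pseudogene suffix. The rule gave 77 of the 18876 genes in the count table, 48 named Mrpl and 29 named Mrps, and all 77 passed the filter on low counts. The lowest count of any of them in a library used for the tests was 88, for Mrpl33. Genes absent from the count table could not be checked. The 3 pseudogenes had between 0 and 41 counts per library.

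The mitochondrial ribosome translates the messenger RNAs of the mitochondrial genome, which encode core subunits of respiratory chain complexes and of ATP synthase. Its ribosomal RNAs are made inside the organelle, while its proteins are encoded in the nucleus, made in the cytosol and imported. Some of these proteins descend from bacterial ribosomal proteins and others were added during the evolution of mitochondria. In microglia, the resident macrophages of the brain, mitochondrial metabolism changes with the cell's activation state.

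RNA was sequenced from CD11b+ cells taken with magnetic beads from both hippocampi of female mice of a mixed 129S;C57BL/6J background, aged 15 to 18 months at collection. All mice carried Slc11a2 fl/fl and Cx3cr1 Cre-ERT2+/-, so the recombinase was driven by the promoter of Cx3cr1, a gene of microglia and related macrophages. Mice of the Slc11a2-KD groups had received tamoxifen by gavage at 4 mg per day for 5 days at 5 to 6 months, and Control mice had received corn oil, so that tamoxifen and loss of Slc11a2, which encodes the iron importer DMT1, cannot be told apart. Each treatment was given to mice without (WT) and with the APP/PS1 transgenes. These encode an amyloid precursor protein of mixed mouse and human sequence, and presenilin-1 with a mutation. Of the Control libraries 6 were WT and 7 APP/PS1, and of the Slc11a2-KD libraries 5 were WT and 5 APP/PS1. The question was how knockdown alters microglial expression in an Alzheimer's disease model.

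The 23 libraries held 31128643 to 54872491 gene counts. Control APP/PS1 0010 was left out of the fits, which leaves 6 libraries in that group. Per the study's methods a Control APP/PS1 sample was removed as an outlier on the first principal component, that is on its expression, and 0010 is the library that a published heat map does not show. Its median over the members, as defined below, was 0.98, above every Control WT library. Library numbers fell into 3 stretches: numbers 1 to 4 were all Slc11a2-KD, 5 to 17 were all Control and 18 to 23 were all Slc11a2-KD. Whether these numbers stand for separate preparations is not given in the sources used here. Counts over the whole Slc11a2 gene, which include exons outside the deleted part and therefore do not test the deletion, were 34.8 ± 5.08 CPM (SD, n = 6) for Control and 33.9 ± 4.71 CPM (SD, n = 5) for Slc11a2-KD among WT mice. Among APP/PS1 mice they were 42.8 ± 3.90 CPM (SD, n = 6) for Control and 56.0 ± 13.3 CPM (SD, n = 5) for Slc11a2-KD, so these gene counts showed no fall in Slc11a2 RNA. The study tested the knockdown over the deleted exons and by RT-qPCR, which were not analysed here, and groups are named as labelled. The 7 microglial markers used here were detected in every library, among them Tmem119 at 1830 to 4902 CPM and P2ry12 at 2063 to 6784 CPM. The 12 choroid plexus markers, genes of the epithelium that makes cerebrospinal fluid, summed to 1964 and 1015 CPM in Control WT 0012 and 0015, to 1.08 to 5.29 CPM in the other Control WT libraries, and to 89.0 to 791 CPM in libraries 18 to 23. Marker sums over the 22 libraries were 1.52 to 10.1 CPM for neurons, 98.7 to 702 for astrocytes, 306 to 3532 for oligodendrocytes, 86.7 to 366 for endothelium, 73.2 to 486 for border macrophages, 256 to 569 for B cells, 0.211 to 9.52 for T and NK cells and 18.8 to 441 for neutrophils.

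Promoter sequences are shown for members that passed a test in at least 1 comparison below, because nuclear factors that bind such motifs are known regulators of mitochondrial gene sets. RefSeq gave windows from 250 bases before to 50 bases after the start site (build GRCm38.p6) for 68 of the 77 members, 74 windows in all. Each is printed 5′ to 3′ in the direction of transcription, and capitals mark a match on either strand to GCGCANGCG (nuclear respiratory factor 1), CCGGAAG (ETS factors such as GABP) or AAGATGGC (YY1).
Mrpl12, chr11:120484387-120484686, plus strand: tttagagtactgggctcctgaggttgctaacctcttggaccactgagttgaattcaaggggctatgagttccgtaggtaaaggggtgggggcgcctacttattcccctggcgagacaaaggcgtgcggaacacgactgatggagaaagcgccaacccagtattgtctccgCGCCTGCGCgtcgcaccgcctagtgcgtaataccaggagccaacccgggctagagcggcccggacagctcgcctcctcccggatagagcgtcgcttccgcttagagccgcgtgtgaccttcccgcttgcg
Mrpl51, chr6:125191950-125192249, plus strand: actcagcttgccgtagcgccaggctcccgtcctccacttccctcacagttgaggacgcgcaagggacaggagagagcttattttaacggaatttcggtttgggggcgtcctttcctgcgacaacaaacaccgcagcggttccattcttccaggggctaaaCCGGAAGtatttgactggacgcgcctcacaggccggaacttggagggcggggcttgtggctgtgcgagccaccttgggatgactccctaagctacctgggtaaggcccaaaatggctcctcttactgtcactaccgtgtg
Mrpl36, chr13:73330759-73331058, plus strand: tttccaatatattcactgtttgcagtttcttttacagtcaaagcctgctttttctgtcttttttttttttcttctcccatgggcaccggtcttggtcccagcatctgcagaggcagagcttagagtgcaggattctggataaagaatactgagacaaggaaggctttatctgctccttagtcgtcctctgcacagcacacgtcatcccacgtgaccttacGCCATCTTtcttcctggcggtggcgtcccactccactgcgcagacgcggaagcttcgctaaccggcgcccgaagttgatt
Mrps18a, chr17:46110754-46111053, plus strand: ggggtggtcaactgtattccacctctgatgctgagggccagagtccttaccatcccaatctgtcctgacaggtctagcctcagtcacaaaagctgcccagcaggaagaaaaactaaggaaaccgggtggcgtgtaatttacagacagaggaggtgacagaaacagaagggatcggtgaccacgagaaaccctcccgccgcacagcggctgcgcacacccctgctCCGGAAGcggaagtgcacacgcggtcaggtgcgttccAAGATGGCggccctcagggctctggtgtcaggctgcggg
Mrpl12 holds the first motif, Mrpl51 the ETS motif, Mrpl36 the YY1 motif on the opposite strand, and Mrps18a both the ETS and the YY1 motif. GCGCANGCG occurred in 16 of the 74 member windows (21.6%) and in 6.25% of all 32851 promoter windows. CCGGAAG occurred in 25 member windows (33.8%) against 8.86% of all windows, and AAGATGGC in 12 (16.2%) against 2.75%. GGGCGG, the SP1 motif, occurred in 39 member windows (52.7%) against 35.7% of all. Among windows of genes that were tested, the shares were 11.4%, 15.3%, 3.86% and 58.1% in the same order, so the members' share lay above the share of tested genes for 3 motifs and below it for SP1. A match shows the letters in that window and is not evidence of binding.

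Per kilobase of exon, the highest mean levels over the 22 libraries were those of Mrps21, Mrpl23 and Mrpl20, at 86.7, 74.8 and 62.6 CPM per kb. The lowest were those of Mrps18c, Mrps26 and Mrpl47, at 2.27, 3.59 and 3.76 CPM per kb, and the member in the middle of the order stood at 14.02. Mrps21 and Mrps18c both encode small subunit proteins with bacterial homologues, so subunits of the same particle differed widely in RNA level. Lengths are those of the canonical transcript of a newer annotation, and which transcripts these cells made was not measured. Together the members took 0.188% to 0.374% of a library's counts.

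The level of the whole set was followed with a median: for each library, the median over the 77 genes of log2 CPM minus the Control WT mean of that gene. Among Control mice it was 0.01 ± 0.08 (SD, n = 6) in WT and 0.22 ± 0.15 (SD, n = 6) in APP/PS1. Among Slc11a2-KD mice it was -0.01 ± 0.33 (SD, n = 5) in WT and 0.59 ± 0.39 (SD, n = 5) in APP/PS1. The Slc11a2-KD groups spread more widely, and the spread followed the library numbers. Within Slc11a2-KD WT the values were -0.04, -0.24 and -0.39 in libraries 1 to 3, and 0.19 and 0.43 in libraries 19 and 22. Within Slc11a2-KD APP/PS1 library 4 stood at 0.02, and libraries 18, 20, 21 and 23 stood at 0.41, 0.70, 1.06 and 0.75. Library 4 lay above libraries 1 to 3, and among libraries 18 to 23 the genotypes overlapped, since 0018 lay below 0022.

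**Figure D1:**
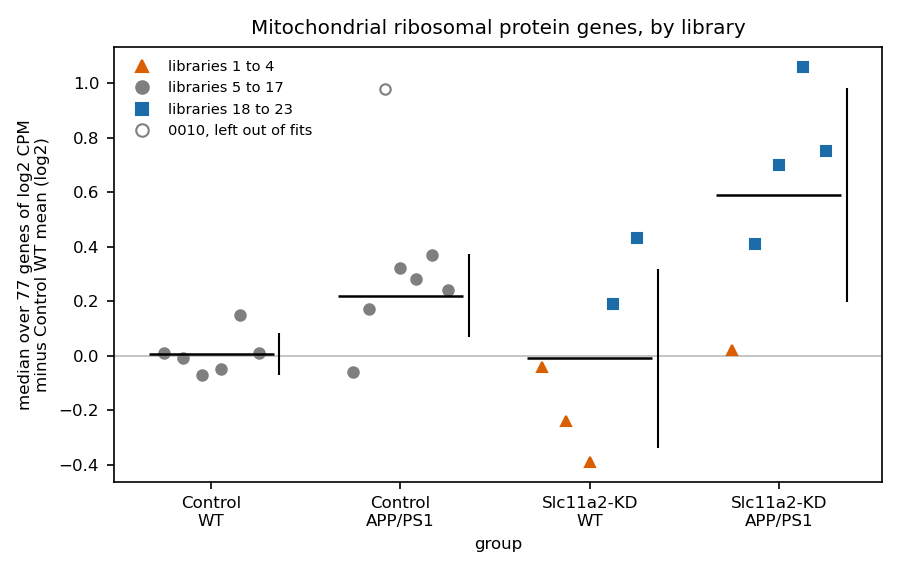
Median over the 77 mitochondrial ribosomal protein genes of log2 CPM minus the Control WT mean (vertical axis, log2 units) for each library, by group (horizontal axis). Lines are group means and bars are SD without the open point, and symbols give the library numbers. Libraries 18 to 23 lie between 0.19 and 1.06, and libraries 1 to 4 between -0.39 and 0.02.

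In Control mice, 5 mitochondrial ribosomal protein genes were higher in APP/PS1 than in WT at an adjusted p under 0.05 (edgeR's quasi-likelihood test, Benjamini-Hochberg over 18759 genes) and 0 were lower. Of all genes tested, 5.99% were called higher and 4.48% lower, so the members' share was close to that of all genes. More members were called with 0010 kept (9, against 6.59% of all genes), with a term for libraries 18 to 23 (14, against 8.42%) and with the compared groups alone (21, against 11.3%). The median log2 fold change of the 77 members was 0.24, against -0.02 for all genes, with 61 of the 77 above 0. At an unadjusted p under 0.05, 16 members were higher, against 13.3% of all genes, and 0 were lower.

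Mrps15, a small subunit protein with a bacterial homologue, had the smallest p. In Control WT it ranged from 12.2 through a median of 14.7 to 18.4 CPM, and in Control APP/PS1 from 18.0 through 22.2 to 25.1 CPM. The ranges overlapped by a single library each, Control WT 0014 at 18.4 and Control APP/PS1 0017 at 18.0. Its log2 fold change was 0.58 ± 0.14 (SE), with an adjusted p of 0.0061 by edgeR. Without Control WT 0012 and 0015 the log2 fold change was 0.47 and did not pass, with an adjusted p of 0.0627 (edgeR). Both log2 fold changes are below the limit of 1 used as another alternative.

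Mrps18a, which despite its name is placed in the large subunit, was at 14.7, 20.5 and 23.9 CPM (lowest, median, highest) in Control WT and at 25.2, 32.4 and 35.8 CPM in Control APP/PS1. The groups did not overlap. The log2 fold change was 0.64 ± 0.18 (SE) and the adjusted p 0.0206 (edgeR).

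Mrpl54, a mitochondria-specific protein of the large subunit, was at 8.69, 11.4 and 17.6 CPM in Control WT and at 19.1, 23.01 and 25.6 CPM in Control APP/PS1, again without overlap. Its log2 fold change was 0.84 ± 0.26 (SE), with an adjusted p of 0.0363 by edgeR. Of its exon bases, 75.5% also lie in exons of Matk in the newer annotation, and Matk itself was at 45.6 ± 3.88 CPM (SD, n = 6) and 43.7 ± 6.65 CPM (SD, n = 6) in the 2 groups. Counting that ignores strand could assign reads of one gene to the other, and the strand setting is not given in the sources used here.

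The other called members were large subunit proteins with bacterial homologues. Mrpl12, the homologue of the factor-binding stalk protein, rose by a log2 fold change of 0.49 ± 0.15 (SE) and Mrpl19 by 0.54 ± 0.16 (SE), with adjusted p of 0.0305 and 0.0283 (edgeR). At the low end, Mrps6, Mrpl50 and Mrpl44 had log2 fold changes of -0.51, -0.28 and -0.25, and none of them passed the test. Without Control WT 0012 and 0015, the libraries high in choroid plexus genes, 0 members were called, against 4.23% of all genes higher, and the median was 0.21. The count went from 1 to 4 as single libraries were left out. Summed microglial markers were also lower in Control APP/PS1 (10625 to 13042 CPM) than in Control WT (16992 to 21073 CPM). Called lower were 3 of the 7, 10 of 12 choroid plexus, 4 of 6 oligodendrocyte, 4 of 6 endothelial and 5 of 6 border macrophage markers. Of all genes, 4.48% were called lower. Choroid plexus sums were 1.08 to 5.29 CPM in Control WT libraries other than 0012 and 0015, and 0.982 to 5.41 CPM in Control APP/PS1. In bulk samples fewer cells of a type and less RNA per cell cannot be told apart, and the part of cell composition in these values was not tested.

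**Figure D2:**
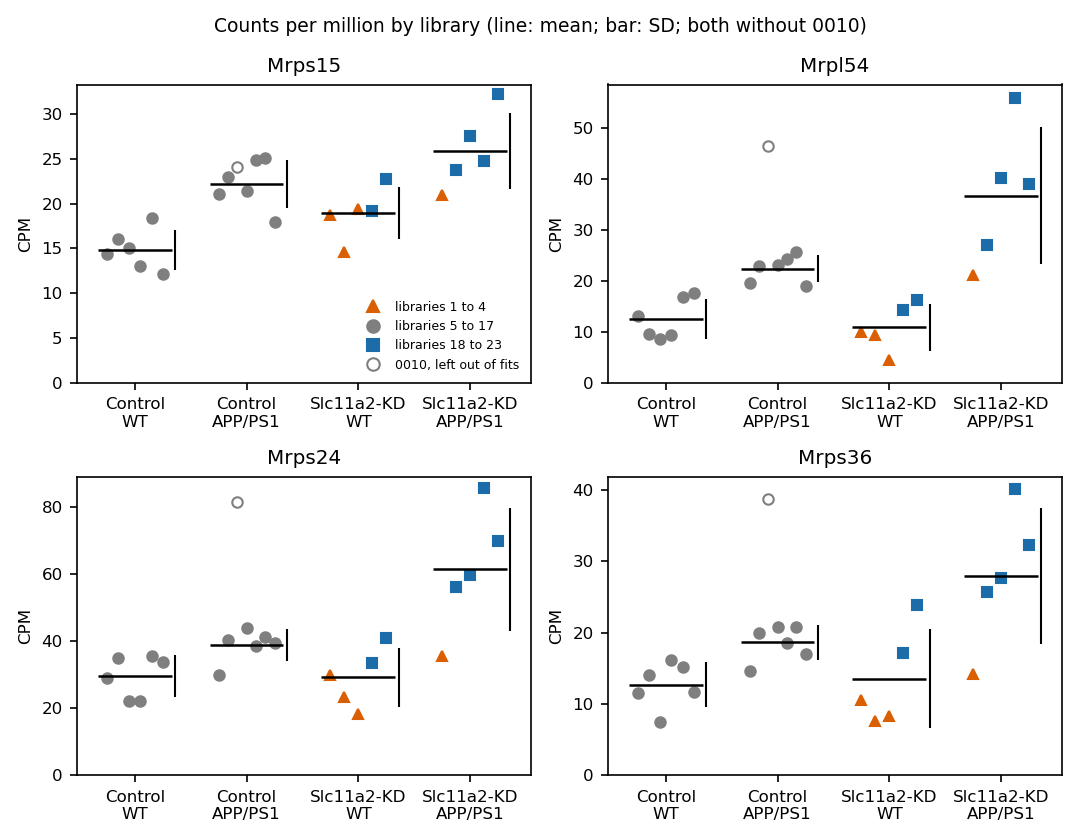
CPM of Mrps15, Mrpl54, Mrps24 and Mrps36 (vertical axes, from 0) in each of the 23 libraries by group, with lines for group means and bars for SD, both without the open point. In Mrpl54 the 5 Slc11a2-KD APP/PS1 libraries, 21.1 to 56.1 CPM, lie above the 5 Slc11a2-KD WT libraries, 4.50 to 16.2 CPM.

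In Slc11a2-KD mice, the same genotype comparison called 45 of the 77 members higher in APP/PS1 and 0 lower, where 9.77% of all genes tested were called higher and 6.41% lower. The median was 0.58 for members and -0.07 for all genes, and 76 of the 77 members were above 0. All 5 genes called in Control mice were among the 45. The larger count does not show that the genotype difference was larger than in Control mice, a question that the interaction below addresses. Summed microglial markers were 7526 to 13930 CPM in Slc11a2-KD APP/PS1 and 16356 to 19747 CPM in Slc11a2-KD WT, and border macrophage markers 107 to 166 and 213 to 486 CPM, without overlap in either list. Of single markers, 5 of 7 microglial, 3 of 6 border macrophage, 3 of 6 endothelial and 2 of 6 oligodendrocyte genes were called lower, and 0 of 12 choroid plexus genes were called in either direction. Their part in the members' difference was not tested.

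Mrpl54 had the smallest p here. Its values in Slc11a2-KD WT were 10.0, 9.38, 4.50, 14.2 and 16.2 CPM (libraries 1, 2, 3, 19 and 22), and in Slc11a2-KD APP/PS1 21.1, 27.1, 40.2, 56.1 and 39.2 CPM (libraries 4, 18, 20, 21 and 23). The groups did not overlap, and within each group the libraries numbered 1 to 4 were below the rest. The log2 fold change was 1.76 ± 0.29 (SE), with an adjusted p of 1.98e-04 by edgeR. Matk had a log2 fold change of 0.18 ± 0.15 (SE) in the same comparison and did not pass.

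Mrps24, a small subunit protein with a bacterial homologue, was at 29.9, 23.2, 18.1, 33.5 and 40.8 CPM in Slc11a2-KD WT and at 35.4, 56.0, 59.7, 85.6 and 69.8 CPM in Slc11a2-KD APP/PS1, in the same library order. The lowest APP/PS1 library, 0004, lay below the highest WT library, 0022. The log2 fold change was 1.07 ± 0.22 (SE) and the adjusted p 0.00155 (edgeR).

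Mrpl28, also with a bacterial homologue, was at 18.6, 14.5, 18.1, 24.7 and 27.7 CPM in Slc11a2-KD WT and at 24.4, 36.5, 42.2, 48.6 and 43.5 CPM in Slc11a2-KD APP/PS1. Here too library 0004 lay inside the WT range. Its log2 fold change was 0.91 ± 0.18 (SE), with an adjusted p of 0.00153 by edgeR. Mrpl51, Mrpl27 and Mrpl36 followed with log2 fold changes of 0.97, 1.00 and 0.95.

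The calls were spread over both subunits. Of the 30 large subunit proteins with bacterial homologues 21 rose, of the 20 mitochondria-specific ones 11, of the 16 small subunit proteins with bacterial homologues 9, and of the 10 mitochondria-specific ones 3. The median log2 fold changes of these 4 groups were 0.66, 0.50, 0.53 and 0.56, a narrow range beside the span over single members of -0.01 (Mrps2) to 1.76. Mrps36, a subunit of the 2-oxoglutarate dehydrogenase complex that structures do not place in the ribosome, also rose, by 1.05 ± 0.29 (SE) on the log2 scale. Differences between the groups of proteins were not tested.

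This comparison mixed libraries of both stretches, with 3 of the 5 Slc11a2-KD WT but 1 of the 5 Slc11a2-KD APP/PS1 libraries numbered 1 to 4. With a term for libraries 18 to 23, 15 members were called higher against 5.98% of all genes, and the median was 0.37. When all libraries but the 2 compared groups were dropped, 7 were called, against 4.33% of all genes. Leaving out Slc11a2-KD APP/PS1 0021 gave 20 calls, against 6.68% of all genes, and leaving out Slc11a2-KD WT 0002 or 0003 gave 26 each, against 6.70% and 6.78%.

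**Figure D3:**
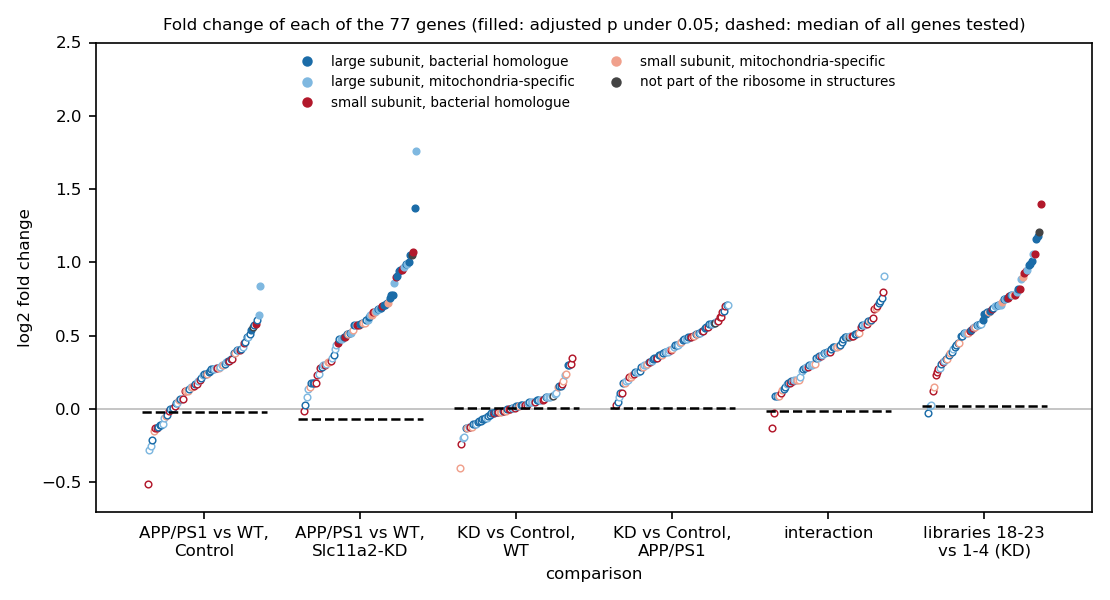
Log2 fold change (vertical axis) of each of the 77 genes in the 6 comparisons (horizontal axis), sorted within each and coloured by place in the ribosome. Filled points passed an adjusted p of 0.05 and dashed lines are the median of all genes tested. In 2 comparisons, APP/PS1 against WT in Slc11a2-KD and libraries 18 to 23 against 1 to 4, filled points make up 45 and 43 of the 77.

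Within WT mice, Slc11a2-KD against Control called 0 members in either direction by edgeR, as for all genes (0% higher and 0% lower). The median log2 fold change of members was 0.02. At an unadjusted p under 0.05, 1 member was higher and 0 lower, where 3.06% of all genes were higher and 2.86% lower. DESeq2 also called 0 members. The 3 members with the smallest p, none of which passed, were Mrps15, Mrps22 and Mrps11. Mrps15 was at 14.9 ± 2.24 CPM (SD, n = 6) in Control WT and 18.97 ± 2.93 CPM (SD, n = 5) in Slc11a2-KD WT. Mrps22 was at 12.8 ± 3.32 CPM (SD, n = 6) and 9.72 ± 2.23 CPM (SD, n = 5), and Mrps11 at 19.4 ± 3.52 CPM (SD, n = 6) and 23.9 ± 8.46 CPM (SD, n = 5).

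The near-zero median was made of libraries that lay on opposite sides. With libraries 1 to 4 as the knockdown libraries it was -0.24, with 17 members lower and 0 higher at an unadjusted p under 0.05, against 7.71% and 5.41% of all genes. With libraries 18 to 23 it was 0.33, with 29 members higher and 0 lower, against 9.29% and 8.89% of all genes. In neither case did a member pass after adjustment.

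Within APP/PS1 mice, Slc11a2-KD against Control also called 0 members by edgeR, and 0% of all genes in either direction. All 77 members nevertheless had a log2 fold change above 0, with a median of 0.41 against 0.01 for all genes. At an unadjusted p under 0.05, 51 members were higher and 0 lower, against 10.8% and 9.74% of all genes, and their smallest adjusted p was 0.205. DESeq2 called 6 members higher, with 2.39% of all genes.

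Mrps17, Mrps24 and Mrpl44 had the smallest p, and none passed. Mrps17 was at 34.0, 38.5 and 49.9 CPM (lowest, median, highest) in Control APP/PS1 and at 38.6, 48.1, 63.0, 80.1 and 61.0 CPM in the 5 Slc11a2-KD APP/PS1 libraries. Mrpl44, which carries a ribonuclease fold, was at 22.4, 24.9 and 33.2 CPM in Control APP/PS1 and at 27.1, 40.9, 43.0, 40.1 and 45.3 CPM in Slc11a2-KD APP/PS1. For Mrps17, libraries 0004 and 0018, the first 2 values, lay inside the Control range, and for Mrpl44 library 0004 did. Mrps24 was at 29.7 to 44.0 CPM in Control APP/PS1, with 0004 at 35.4 CPM and the other 4 Slc11a2-KD libraries above that range.

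This comparison turned on library 0004. Without it, 41 members were called higher, against 7.34% of all genes, and the median was 0.54. Without all of libraries 1 to 4, 51 members were called higher, against 9.21% of all genes. With 0004 as the lone Slc11a2-KD APP/PS1 library, assumed to vary like the other groups, the median was -0.18, and with a term for libraries 18 to 23 it was -0.10. All Control libraries were numbered 5 to 17, so knockdown and library number cannot be told apart. With Control APP/PS1 0010 kept, the median was 0.26 and 2 members were higher at an unadjusted p under 0.05. Choroid plexus markers summed to 0.982 to 5.41 CPM in Control APP/PS1 (median 1.88) and to 2.28 to 491 CPM in Slc11a2-KD APP/PS1 (median 279), and astrocyte markers had medians of 415 and 105 CPM with overlapping ranges. All 12 choroid plexus markers were higher at an unadjusted p under 0.05 and 0 after adjustment. Their part in the members' difference was not tested.

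The interaction asks whether the APP/PS1 difference was larger in Slc11a2-KD than in Control mice, or equally whether the knockdown difference was larger in APP/PS1. edgeR called 0 members, as 0% of all genes in either direction, and DESeq2 also called 0 members. The median was 0.39 against -0.01, with 75 of the 77 members above 0. It was 0.18 with a term for libraries 18 to 23, 0.23 with the length and GC correction described below and 0.26 with 0010 kept, and 0.27 to 0.53 with single libraries left out. At an unadjusted p under 0.05, 14 were higher and 0 lower, against 4.86% and 4.22% of all genes, but 1 was higher with the term and 2 with 0010 kept. Mrpl50, Mrps22 and Mrpl34 had the smallest p, with log2 values of 0.58 ± 0.23, 0.69 ± 0.27 and 0.61 ± 0.25 (SE), and an adjusted p of 0.544 each. Mrpl34 shares 82.0% of its exon bases with another annotated gene.

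The 10 Slc11a2-KD libraries allowed the 2 stretches of library numbers to be compared with genotype in the model. In libraries 18 to 23 against 1 to 4, 43 of the 77 members were higher and 0 lower, where 9.93% of 17060 genes were called higher and 8.91% lower. On the log2 scale the median was 0.65 for members and 0.02 for all genes. Of the 43, 31 were among the 45 called in the Slc11a2-KD genotype comparison, with which this one shares all its libraries.

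Mrps36 had the smallest p. It was at 10.6, 7.56, 8.29 and 14.1 CPM in libraries 1 to 4 and at 25.6, 17.2, 27.7, 40.2, 23.9 and 32.3 CPM in libraries 18 to 23, with no overlap. The log2 difference was 1.21 ± 0.20 (SE) and the adjusted p 0.00848 (edgeR). Mrps18c was at 6.35, 2.96, 4.13 and 5.67 CPM in libraries 1 to 4 and at 10.5 to 16.1 CPM in libraries 18 to 23, with the largest log2 difference of any member, 1.40 ± 0.26 (SE). Mrpl13, Mrpl30 and Mrpl57 followed with log2 differences of 0.82, 0.98 and 1.06, as did Mrpl14, at 26.6 CPM or less in libraries 1 to 4 and at 34.9 CPM or more in libraries 18 to 23. The count fell to 1 without Slc11a2-KD APP/PS1 0004, to 0 without Slc11a2-KD WT 0022 and to 27 without Slc11a2-KD WT 0003, where 0.544%, 0.262% and 6.41% of all genes were called higher, while the median stayed between 0.56 and 0.69 over all single libraries left out. All 12 choroid plexus markers were above 0 in the same comparison and 10 were called higher. Summed microglial markers had a median of 10773 CPM in libraries 18 to 23 and 18877 CPM in libraries 1 to 4, and border macrophage markers 151 and 298 CPM, where 3 of the 4 libraries numbered 1 to 4 but 2 of the 6 numbered 18 to 23 were WT. With genotype in the model, 2 of 7 microglial markers were called lower and 1 higher, and of 6 border macrophage markers 1 each way. The part of these markers in the members' difference was not tested.

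In the comparisons below, fold changes varied with the annotated exon length of the genes. The median member had 1820 bases of exon against 2788 for all genes tested. In Slc11a2-KD APP/PS1 against Slc11a2-KD WT, the median log2 fold change of all genes fell from 0.48 in the shortest quintile of length to -0.44 in the longest, and for libraries 18 to 23 against 1 to 4 from 0.62 to -0.61. In Slc11a2-KD APP/PS1 against Control APP/PS1 it fell from 0.42 to -0.37, where the members' medians were 0.50 in the shortest and 0.38 in the longest quintile, and in the interaction from 0.37 to -0.35, where they were 0.49 and 0.27. The medians of members by quintile were 0.68, 0.49, 0.68, 0.57 and 0.54 in the Slc11a2-KD genotype comparison and 0.69, 0.51, 0.70, 0.57 and 0.54 between library stretches. They lay above all genes in each quintile, by least in the shortest, and the last quintile held 4 members. With an offset fitted to length and GC content, 25 members were called higher and 1 lower in the Slc11a2-KD genotype comparison. Of all genes 7.87% were called higher, and the members' median was 0.28. The offset also took the median to 0.16 in Slc11a2-KD APP/PS1 against Control APP/PS1. It gave 22 members called higher for the library stretches (5.57% of all genes), with a median of 0.23. In Control mice it gave 3 higher (6.19% of all genes) and 1 lower, with a median of 0.10.

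**Figure D4:**
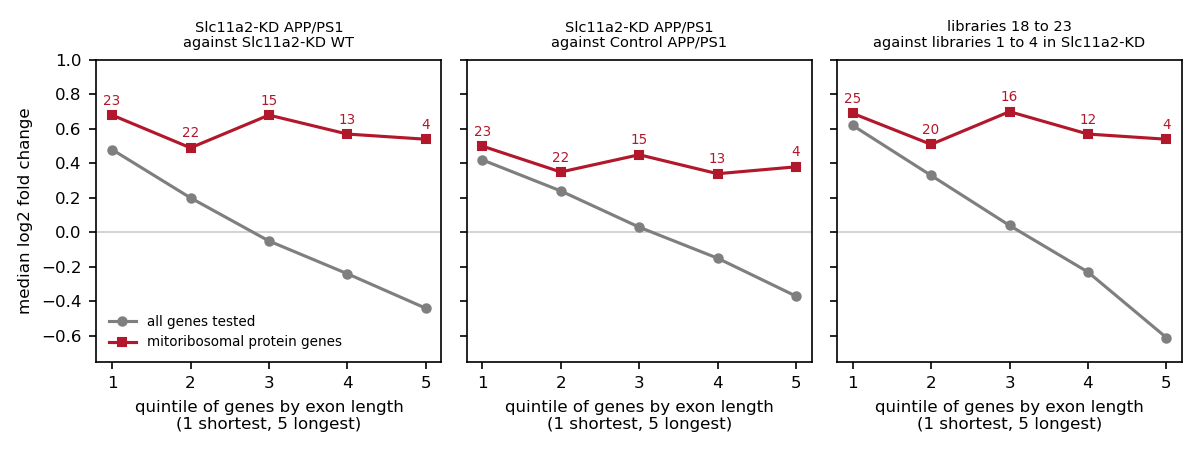
Median log2 fold change (vertical axis) of all genes tested (grey) and of mitochondrial ribosomal protein genes (red, with their number) by quintile of exon length (horizontal axis) in 3 comparisons. All-gene medians fall with length, from 0.48 to -0.44 in the first panel, while the members' medians stay between 0.49 and 0.68.

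The Mrps18 paralogues encode related proteins that occupy separate places in the ribosome. Mrps18a rose in APP/PS1 under both treatments, from 21.1 ± 5.31 CPM (SD, n = 5) to 38.4 ± 11.6 CPM (SD, n = 5) in Slc11a2-KD mice, a log2 fold change of 0.86 ± 0.20 (SE) with an adjusted p of 0.00409 by edgeR. Mrps18b was at 16.1 ± 4.12 CPM (SD, n = 5) and 24.2 ± 8.14 CPM (SD, n = 5) there, and Mrps18c at 7.77 ± 4.68 CPM (SD, n = 5) and 11.6 ± 3.92 CPM (SD, n = 5), and neither passed the test. The exons of Mrps18b and Mrps18c overlap other genes over 49.5% and 70.4% of their length, those of Mrps18a over none.

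Other parts of the mitochondrial translation machinery were read from lists, beside the 9.77% of all genes called higher and 6.41% called lower in Slc11a2-KD APP/PS1 against Slc11a2-KD WT. Of the 5 mitoribosomal proteins with other symbols, Aurkaip1, Chchd1 and Gadd45gip1 rose in that comparison, with log2 fold changes of 1.17, 0.79 and 0.63, and Dap3 and Ptcd3 did not pass. Of 26 assembly factors 3 rose and 0 fell, with Mtg1, a GTPase of large subunit assembly, at 0.95, Rcc1l at 0.73 and Mpv17l2 at 0.51. Of 17 translation factors 2 rose, the elongation factor Tufm by 0.34 and the RNA-binding Slirp by 0.94 on the log2 scale, and the initiation factor Mtif2 fell by 0.56. The shares of assembly and translation factors called higher were close to that of all genes. Of 20 aminoacyl-tRNA synthetases and their partners 0 passed, 2 at an unadjusted p under 0.05. The median log2 fold change was 0.63 for the proteins with other symbols, 0.29 for assembly factors, 0.12 for translation factors and 0.10 for synthetases, beside 0.58 for the members.

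Transcripts of the mitochondrial genome, which the mitoribosome translates or contains, were read in the same fit. Of the 10 mitochondrially encoded mRNAs tested, 4 fell in that comparison and 0 rose. mt-Nd2 and mt-Nd4, subunits of complex I, both had a log2 fold change of -0.72, mt-Nd5 -0.68 and mt-Cytb, a subunit of complex III, -0.65. The rRNAs mt-Rnr1 and mt-Rnr2 had log2 values of -0.33 and -0.18 and did not pass. In libraries 18 to 23 against 1 to 4, both rRNAs and 3 of the 10 mRNAs were higher, mt-Nd1 by 0.93 and mt-Nd2 by 0.40 on the log2 scale. The other, mt-Co3, was at 174 CPM in Slc11a2-KD WT 0022 and at 0 to 3.31 CPM in the other 9 libraries, so 1 library carried that call. Libraries were selected for poly(A), so levels of these transcripts also depend on their tails.

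Among 17 genes of mitochondrial DNA expression and its regulators, Gabpa, a subunit of the ETS factor GABP, fell by 0.57 on the log2 scale in the Slc11a2-KD genotype comparison and 0 rose, a share close to the 6.41% of all genes called lower. In Control mice its partner Gabpb1 fell by 0.49. Nrf1, Yy1 and Tfam, the factor that packages mitochondrial DNA, had log2 values of -0.55, -0.49 and 0.17 in Slc11a2-KD mice and did not pass. Members with and without the ETS motif had medians of 0.66 (25 members) and 0.49 (43 members) in that comparison, and those with and without the YY1 motif 0.51 and 0.57. For the nuclear respiratory factor 1 motif the medians were 0.55 (16 members) and 0.57 (52 members), and for SP1 0.57 with and without, all a description without a test.

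Genes of the cytosolic ribosome and of complex I, which oxidises NADH in the respiratory chain, were read for comparison. Of 87 cytosolic ribosomal protein genes 53 rose in Slc11a2-KD APP/PS1 against Slc11a2-KD WT, with a median of 0.77, and of 37 complex I subunit genes 31 rose, with a median of 0.83. In libraries 18 to 23 against 1 to 4 the counts were 74 and 34. Of all genes tested, 9.77% were called higher in the genotype comparison and 9.93% between the library stretches. The second share fell to 0.544% without Slc11a2-KD APP/PS1 0004 and to 0.262% without Slc11a2-KD WT 0022. The 5 genes outside the set whose log2 CPM ran most like the members' median over the 22 libraries were Rab5if, Psmb1, Psmb4, Atp6v0e and Atp6v0b, with Pearson's r of 0.993, 0.992, 0.991, 0.991 and 0.988. Psmb1 and Psmb4 encode subunits of the proteasome, and Atp6v0e and Atp6v0b subunits of the proton pump of lysosomes. These correlations share libraries, depth and scaling with the median and are given as a description.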

How the data were processed

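RNA of CD11b+ hippocampal cells from 23 mice was sequenced as poly(A) libraries with paired reads. Per the study's methods and processing notes the authors trimmed reads with Trim Galore 0.6.7, aligned them with STAR to mm39 and deposited raw counts per gene. A second table holds the deposited signal, counts divided by DESeq2 (1.36.0) size factors. It was checked against the counts and not used further. The strand setting of the counting is not given in the sources used here.

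Genes reaching 5 counts in 3 or more libraries were tested with edgeR 4.0.16 in R 4.3.3 (TMM scaling, quasi-likelihood test, Benjamini-Hochberg adjustment over all genes, threshold 0.05). The fit had the 4 groups as terms on 22 libraries and gave 5 contrasts. The library stretches were fitted on the 10 Slc11a2-KD libraries with APP/PS1 as a term. CPM are counts scaled to library size after TMM, SE is the log2 fold change divided by the square root of F, and log2 CPM used a prior count of 2. Alternatives were DESeq2 1.42.0, its size factors, other filters, a length and GC offset, other sets of libraries and each library left out. Leaving out Control WT 0012 and 0015 was added after seeing the data. The code was tested on simulated data. Library totals set the counting precision. The p-values set a difference against the spread between libraries of the same group, each from its own mouse. In the fit of the 4 groups, that spread also holds the difference between the library stretches of Slc11a2-KD mice.

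The members and lists were chosen with earlier results of these data known. A gene of the microglial marker list is not reported here and was left out of its sums and counts. Named members are, per comparison, up to 6 called members in each direction with the smallest p, or the 3 with the smallest p where none passed. Further named members are the 3 highest and 3 lowest per kilobase, the Mrps18 paralogues, Mrps36, members with a library standing apart and members whose direction an alternative turned. Cytosolic ribosomal and complex I genes were taken by symbol pattern. Positions, lengths and overlaps came from GENCODE M39 (GRCm39), and promoters from RefSeq (GRCm38.p6).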

Additional observations from a re-analysis of the deposited data

Results flagged for a closer look

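In 6 of 116 groups of 5 or 6 libraries, the lowest library stood apart from the rest by Dixon's 95% criterion. The groups reuse the same libraries for different named members, so this count was not compared with a chance rate. Control APP/PS1 0005 was low for Mrpl14 (21.2 CPM, others 33.3 to 41.8), Mrpl20 (35.5 CPM, others 48.9 to 52.5), Mrpl51 (30.8 CPM, others 40.1 to 44.8) and Mrps24 (29.7 CPM, others 38.4 to 44.0). Slc11a2-KD APP/PS1 0004 was low for Mrpl44 (27.1 CPM, others 40.1 to 45.3), and Slc11a2-KD WT 0003 for Mrps18b (9.25 CPM, others 16.1 to 19.98). The 4 values of library 0005 come from 1 mouse and are not separate observations.

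Control APP/PS1 0010, which the comparisons do not use, had a median over the 77 genes of 0.98 above the Control WT mean on the log2 scale, where the Control WT libraries lay between -0.07 and 0.15. In it 76 of the 77 members were above the Control WT mean, and the shortest quintile of all genes had a median of 0.88 and the longest of -0.66.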

How the results depend on the processing

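The median log2 fold change of members kept its sign in Control APP/PS1 against Control WT, in Slc11a2-KD APP/PS1 against Slc11a2-KD WT, in the interaction and between library stretches under every alternative run. Knockdown and library number coincide, and the counts of calls moved with single libraries and with the fit. In Control APP/PS1 against Control WT, the 5 members called higher became 2 with DESeq2 size factors. They became 3 (and 1 lower) with the length and GC correction, where 6.19% of all genes were called higher. The count was 9 with 0010 kept (6.59%), 14 with a term for libraries 18 to 23 (8.42%) and 21 with the compared groups alone (11.3%). It was 0 without Control WT 0012 and 0015 (4.23%), 0 with an absolute log2 fold change above 1, and 1 to 4 with single libraries left out. In Slc11a2-KD APP/PS1 against Slc11a2-KD WT, the 45 became 25 (and 1 lower, median 0.28) with the length and GC correction (7.87% of all genes higher). With the term the count was 15 (5.98%), and with the compared groups alone 7 (4.33%). It was 6 above the fold limit, and 20 to 58 with single libraries left out. In Slc11a2-KD WT against Control WT the median of 0.02 became -0.24 with the term and 0.33 with knockdown libraries 18 to 23. In Slc11a2-KD APP/PS1 against Control APP/PS1, DESeq2 called 6 members and a fit with knockdown libraries 18 to 23 called 51 (9.21% of all genes), 0 to 41 were called with single libraries left out (41 without 0004, with 7.34% of all genes, and 0 otherwise), and the median of 0.41 turned to -0.10 with the term and -0.18 with knockdown libraries 1 to 4. Between library stretches the 43 became 22 (median 0.23) with the length and GC correction (5.57% of all genes higher). They became 7 above the fold limit and 0 to 48 with single libraries left out. Where no share of all genes stands beside a count, a change in the members cannot be told from a change in all calls. Of named members, Mrps11 turned to -0.08 with the term and -0.10 with knockdown libraries 1 to 4 in WT mice, and Mrps17 and Mrps24 turned to -0.08 and -0.15 with knockdown libraries 1 to 4 in APP/PS1 mice. The cause was not tested. No paired analysis was possible because the replicate numbers are not shared between groups.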
